A study of Rattus norvegicus with 24 samples.

Results

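Transcript clusters annotated as noncoding and expressed in the rat nucleus accumbens numbered 1232 of the 68842 clusters on the array. A transcript cluster is the set of array probes that stands for 1 transcribed region. Clusters were taken when the deposited annotation put them in the NonCoding class, when no gene symbol began with Mir and none was Meg3, and when their mean signal over the 6 control arrays was above that of the bacterial spike-in bioB over the same arrays (9.45 on the log2 scale). They made up 4.35% of the 28308 noncoding clusters left after symbols beginning with Mir were removed, and 13.6% of the 9044 clusters of any class above bioB. For comparison, 17.5% of coding clusters lay above it. The clusters were thus selected on measured values, their signal on the CT arrays, and so their levels in controls and every difference from controls are given below only as a description. Differences among the other 4 groups did not enter the choice.

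The rats were male Sprague Dawley animals. Shock-resistant rats (SR, 6 arrays) had self-administered methamphetamine and kept taking it when infusions were paired with footshocks, and shock-sensitive rats (SS, 6 arrays) had the same training and punishment and cut their intake. Rats yoked to SR partners (YSR, 3 arrays) or to SS partners (YSS, 3 arrays) received saline and the shocks of their partner regardless of their own presses, and control rats (CT, 6 arrays) self-administered saline without shocks. The accumbens, a part of the ventral striatum, was taken about a month into withdrawal, after a second test of drug seeking, and RNA of 1 rat went on 1 array. SR and SS were sorted afterwards by their intake under punishment, so what preceded drug taking and what followed it cannot be told apart. Titles of SR, SS and CT arrays hold a (2) that is missing from YSR and YSS titles. If it stands for a batch, that batch and the group cannot be told apart in SRvsYSR, SSvsYSS, YSRvsCT and YSSvsCT. The test over SR, SS, YSR and YSS together, given below, also joins arrays with and without it.

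All 10 marker genes of medium spiny neurons and accumbens tissue, among them the dopamine receptor genes Drd1 and Drd2, were above bioB in CT. Summed over the list they ran from 16.29 to 17.58 on the log2 scale in SR and from 15.76 to 17.55 in SS. Of the 3 markers each of choroid plexus, astrocytes and endothelium, 0 were above bioB in CT, while the choroid plexus sum reached 15.91 on 1 SS array against 6.57 to 6.96 in SR. Of the 4 oligodendrocyte markers 3 were above bioB, with sums of 16.02 to 16.60 in SR and 16.12 to 16.58 in SS. The summed level of cortical markers, of which 1 of 4 was above bioB, ran from 7.98 to 11.36 in SR and from 7.78 to 9.54 in SS, and that of blood markers, of which 1 of 3 was above bioB, from 17.58 to 18.88 in SR and from 18.11 to 18.89 in SS. In the other groups the cortical sum ran from 8.54 to 11.62 in CT, 8.31 to 11.375 in YSR and 8.52 to 11.13 in YSS. The part of other cell types in the differences below was not tested. In tissue RNA, fewer cells of a type and less RNA per cell cannot be told apart.

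Noncoding RNAs include structural RNAs of the ribosome, the spliceosome and the signal recognition particle, small nucleolar RNAs that guide chemical changes on ribosomal RNA, precursors of microRNAs, and long transcripts with no open reading frame. Many are cut from, or lie inside, the introns of longer genes, so probes for them can also bind unspliced RNA of the surrounding gene. Brain tissue is known for strong expression of Bc1, a short cytoplasmic RNA of rodents that came from a transfer RNA and represses translation at synapses.

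Sequences are shown for named members only. The first set holds the mature microRNAs of the 3 named rat hairpins that lie among a run of 40 members on chromosome 17, which is described further below. They come from RefSeq on the assembly GRCr8 and run 5′ to 3′, with the seed, bases 2 to 8, in capitals.
rno-miR-466b-5p: uAUGUGUGuguguauguccaug
rno-miR-466b-3p: aUACAUACacacacacauacac
rno-miR-466b-2-3p: aUAUACAUacacacauacaca
rno-miR-466c-5p: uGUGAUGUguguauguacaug
rno-miR-466c-3p: uAUACAUGcacacauacacac
The 5 sequences had 5 different seeds. The same 5p arm, with the seed AUGUGUG, is made from the 2 hairpins rno-mir-466b-1 and rno-mir-466b-2, so only those hairpins share a seed. The array clusters span the hairpins and not the mature arms, so the values below are not levels of mature microRNAs.

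The other sequence is that of Bc1, the best known brain RNA among the members. Its first 50 transcribed bases in RefSeq lie at chr1:209502897-209502946 on the plus strand of GRCr8. The capitals mark a match to the A box, the front part of the internal promoter of transfer RNA genes, searched as TAGC, any 2 bases, AG, any base and GG.
Bc1: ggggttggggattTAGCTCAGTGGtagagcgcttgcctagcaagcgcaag
The match runs from base 14 to base 24 of the transcript. Searched on both strands, those letters occur in 500 of 33469 RefSeq windows around gene starts, or 1.49%. These windows are longer than the 50 bases printed, so the share is not the rate for 50 transcribed bases. Of the expressed clusters Bc1 is 1 of 2 with that symbol, and its values are given below.

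The deposited signal of the 1232 clusters in CT reached 19.71 on the log2 scale, with quartiles of 10.36, 11.71 and 15.02. Levels of 15 or more were reached by 313 of them, or 25.4%, against 268 coding clusters, or 6.19% of the coding clusters above bioB. The array also carries 1153 negative control probe sets, and 783 of the noncoding clusters (63.6%) were above the 95th percentile of these on all 24 arrays. On none of the arrays did 32 clusters exceed it. Just inside the threshold lay TC1100000056.rn.1 in Robo1, TC1500001096.rn.1 in Gpc5 and TC0200004869.rn.1, a mouse predicted gene, at 9.46, 9.46 and 9.47 in CT, and just outside it TC0100000291.rn.1, TC0200000162.rn.1 and TC0X00001263.rn.1 at 9.45, 9.45 and 9.45. Not all clusters are separate measurements. The 1232 clusters held 1183 distinct sets of values, because 80 clusters in 31 sets were listed with identical values on every array.

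By annotation, 342 clusters (27.8%) were Ensembl microRNA entries of the rat, mostly unnamed predictions, and 238 (19.3%) were mouse transcripts of the NONCODE collection placed on the rat genome and described as sense but not exonic, that is, inside a gene on its strand but outside its exons. The rat gene database gave 147 loci, a rat noncoding collection 136, mouse predicted genes 136 and mouse intergenic transcripts 119. Smaller classes were 25 other mouse entries, 23 mitochondrial, 20 mouse antisense, 20 mouse microRNA names and 18 structural RNAs, with 8 of other kinds. The share of each class that passed bioB differed widely. It was 76.7% of 30 mitochondrial clusters, 38.4% of 891 Ensembl microRNA entries, 37.5% of 48 structural RNAs and 30.8% of 442 rat noncoding entries, but 7.30% of 3262 sense nonexonic transcripts, 1.27% of 9368 intergenic and 0.601% of 3330 antisense transcripts. The rule by symbol let some related RNAs through. Rat hairpins written rno-mir stayed in, as did mouse microRNAs known only by their description and TC0600001492.rn.1, a cluster of 339 probes and 32199 bases on chromosome 6 described as similar to GTL2, another name of Meg3.

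The highest signal in CT was 19.71 for TC0100005247.rn.1, a mouse predicted gene of 42 bases on chromosome 1. The other 9 of the 10 highest were Ensembl microRNA entries of 56 to 79 bases on chromosomes 6, 10, 14 and 19, between 19.70 and 19.71, and 5 of these shared identical values. Near the same ceiling lay the cluster of the signal recognition particle RNA 7SL (TSUnmapped00000237.rn.1) at 19.67, and a pair of mitochondrial clusters of 957 and 1570 bases, TC0M00000002.rn.1 at 19.64 and TC0M00000004.rn.1 at 19.59, at the positions of the mitochondrial ribosomal RNAs. For 7SL the SR minus SS difference had a 95% interval of −0.13 to 0.12 and a standard error of 0.06. These extra clusters and those of the microRNA block were picked after their values had been seen.

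Among named RNAs, Bc1 was measured at chr1:218075359-218075511 on the plus strand of the deposited annotation, for which no source names a genome build. Its signal was 16.86 at the lowest, 17.38 at the median and 17.59 at the highest in SR, and 17.28, 17.42 and 17.54 in SS. It was 17.52, 17.55 and 17.46 in YSR, 17.54, 17.85 and 17.34 in YSS, and 17.14, 17.36 and 17.74 in CT. Where 3 values of a cluster are given, here and below, those of YSR and YSS are arrays 1 to 3 in order. Those of SR, SS and CT are the lowest, median and highest. The ranges of SR and SS overlapped, and the difference SR minus SS was −0.13 ± 0.13 (standard error, 95% interval −0.39 to 0.13, adjusted p = 0.609). The second entry with that symbol, TC1100001908.rn.1, rests on 1 probe and is annotated over a span of 121759 bases on chromosome 11. It stood at 19.48 in CT, and whether its probe measures the short RNA alone cannot be told. Its arrays ran from 19.059 to 19.225 in SR and from 19.209 to 19.427 in SS. They ran from 19.312 to 19.432 in YSR, 19.302 to 19.735 in YSS and 19.206 to 19.735 in CT. Only SR 2 reached the SS range. Rmrp, the RNA of the RNase MRP enzyme that processes ribosomal RNA, averaged 14.46 in CT with SR minus SS of −0.12 ± 0.21. The C/D box snoRNA Snord33 averaged 16.13 and the H/ACA box snoRNA Snora15 averaged 13.04 in CT. Their SR minus SS differences were 0.21 ± 0.20 for Snord33 and −0.03 ± 0.13 for Snora15, each within 2 standard errors of 0. Snord22 was close to the threshold at 9.64. Vof16, a rat noncoding transcript on chromosome 8, averaged 14.51 in CT with SR minus SS of −0.38 ± 0.19, and Copg2os2, opposite Copg2 on chromosome 4, averaged 14.07 with −0.02 ± 0.29.

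Expressed noncoding clusters were short. Their median length, Stop minus Start in the deposited annotation, was 346 bases (quartiles 89 and 2195) over the 1230 with a position, against 2686 bases for the 27076 noncoding clusters below bioB and 33026 bases for coding clusters above it. Lengths of 40 to 200 bases were found for 42.1% of the expressed clusters and for 8.95% of those below bioB. The short clusters were also the brighter ones, with a median CT signal of 13.66 at 40 to 200 bases and 10.63 at 1000 to 10000 bases. Median lengths were 77 bases for mouse predicted genes, 89 for Ensembl microRNA entries, 71 for mitochondrial clusters, 2195 for sense nonexonic transcripts and 6072 for rat gene database loci.

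**Figure D1:**
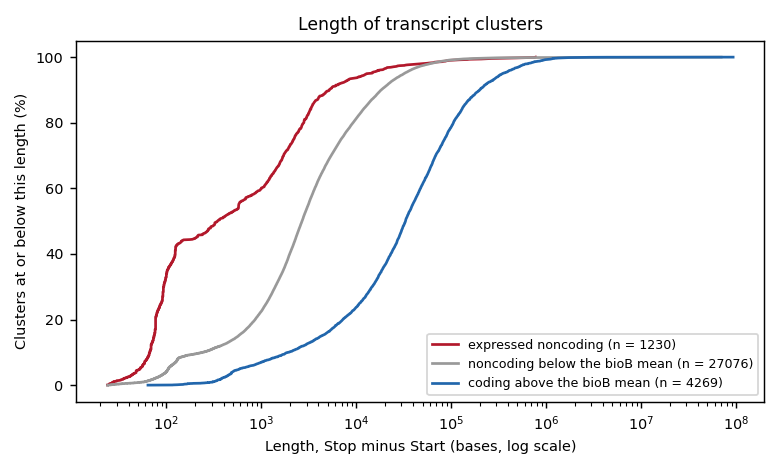
Share of clusters (%) at or below each length in bases (log axis) for expressed noncoding clusters, noncoding clusters below the bioB mean and coding clusters above it. The expressed noncoding curve has its median at 346 bases, and 42.1% of these clusters are 40 to 200 bases long.

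The longest clusters were TC0100005637.rn.1 (nawflu), which spans 773565 bases on the minus strand of chromosome 1 over Mkrn3 and opposite Magel2, a pair of imprinted genes, TC0100002051.rn.1 with 759371 bases on chromosome 1, TC0500002518.rn.1 with 605740 bases on chromosome 5, TC1300000981.rn.1 with 477816 bases on chromosome 13 and TC0700000612.rn.1 with 377537 bases on chromosome 7. The chromosome 13 cluster is described as microRNA 297c, a hairpin far shorter than that span. The 5 shortest were 24 or 25 bases long and rested on 1 or 2 probes each: TC0100006983.rn.1, TC0200003066.rn.1, TC1100002018.rn.1, TC1800001615.rn.1 and TC0200002843.rn.1. Most clusters, 1031, had 30 probes and 34 had fewer than 10.

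Strands were balanced, with 616 clusters on the plus and 614 on the minus strand, but not within chromosomes. Chromosome 1 held 200 clusters (16.2% of them, against 10.3% of expressed coding clusters), 122 of them on the minus strand. Chromosome 17 held 61 with 47 on the minus strand, and chromosome 13 held 12, 1.24% of its noncoding clusters, and the Y chromosome held 0. Of 732 windows of 1 Mb with an expressed noncoding cluster, 537 held 1 and 14 held at least 8.

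The densest window, chr1:116594973-116985943, held 36 expressed clusters out of 43 noncoding ones, all on the minus strand, 27 of them mouse predicted genes, with a median length of 77 bases. All overlap a coding cluster on the same strand, 23 of them moflu, 10 RGD7660362_1 and 3 RGD7663401_1, and 7 also lie opposite Ube3a, the ubiquitin ligase gene that is imprinted in neurons. Transcripts antisense to Ube3a are known to carry repeated small nucleolar RNAs in rodents. Their levels spread widely, from 9.93 to 18.87 in CT. On the mitochondrial genome 23 of 30 noncoding clusters were expressed, 12 on the plus and 11 on the minus strand, with CT levels of 9.49 to 19.64. A further run of 16 clusters, 14 of them mouse predicted genes, with a median length of 92 bases, lay at chr1:194836498-195009283 on the minus strand.

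The microRNA block on chromosome 17 held 40 expressed clusters on the minus strand in a pair of stretches, 24 within Sfmbt2 at chr17:71773511-71814511 and 16 at chr17:72059471-72072093. Of the 40, 34 are annotated as microRNAs or microRNA predictions and they are 70 to 126 bases long. Only 31 sets of values were distinct, since several hairpins, rno-mir-466b-1 and rno-mir-466b-2 included, are listed in both stretches with the same values. Sfmbt2 encodes a polycomb group protein, and its own coding cluster stood at 5.35 in CT, below bioB. Other runs lay inside long genes and were mostly sense nonexonic transcripts. There were 17 expressed clusters within Pcdh9, a protocadherin gene of cell adhesion, 17 within Nrxn3, 12 within Dlg2 and 8 within Csmd1. In their densest windows the class made up 17 of 17 in Pcdh9, 12 of 13 in Nrxn3, 11 of 12 in Dlg2 and 8 of 8 in Csmd1. The coding cluster of Csmd1 stood at 9.06 in CT, below bioB like that of Sfmbt2. Robo1, an axon guidance receptor gene, held 12, and 9 of the 11 in its main window were mouse intergenic entries.

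Of the 1230 clusters with a position, 460 (37.4%) overlapped a coding cluster on the same strand, 211 (17.2%) overlapped one on the opposite strand only, and 559 overlapped none. Noncoding clusters below bioB had the reverse order, with 20.1% on the same strand and 28.7% on the opposite strand only. In the annotation 13 coding clusters are longer than 3 Mb and cover many unrelated genes. Without them the same-strand share was 34.6% for expressed clusters and 16.7% for those below bioB. The sense nonexonic class stood out at 81.5% on the same strand, against 27.2% of the Ensembl microRNA entries and 5.88% of the rat noncoding entries.

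In SRvsSS, the comparison of rats that kept and rats that cut their intake, the noncoding clusters were mostly lower in SR. The median difference was −0.27 on the log2 scale, 1094 of 1232 clusters had a negative value, and 300 (24.4%) were lower while 11 (0.893%) were higher, both at an unadjusted p under 0.05. Over all 9044 clusters tested, 6.77% were lower and 5.76% higher by that rule, and the median difference was −0.04. In the same fit 448 coding clusters were higher and 74 lower, with a median of 0.06. The clusters that the annotation leaves unassigned, 2773 of those tested, also had lower values in SR, with 211 lower (7.61%), 29 higher (1.05%) and a median of −0.13. The difference between these classes was not tested. No noncoding cluster passed an adjusted p of 0.05 (0 of 1232, limma, smallest adjusted p = 0.378, background 0%), but 101 did without array SR 1 and 243 with array weights. At 1.7-fold or more with that unadjusted p, 0 were higher and 50 lower, against 0% and 0.774% of all clusters. Shares of all clusters, here and below, come from the unweighted fit of all 24 arrays. They were not computed under other settings. Counts such as 101 and 243 therefore have no background, and whether they are particular to noncoding clusters cannot be told.

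The lower values in SR came mainly from some of its arrays. The median over all expressed noncoding clusters was 11.93, 11.78, 11.40, 11.46, 10.95 and 11.27 on SR arrays 1 to 6, and 11.67 at the lowest, 11.73 at the median and 11.88 at the highest in SS. SR arrays 3 to 6 were below every SS array and SR arrays 1 and 2 were within or above the SS range. The lowest array medians of CT, YSR and YSS, at 11.51, 11.60 and 11.42, were also below every SS array. Only SR 3, SR 5 and SR 6 were below all arrays of those groups. Among the 300 clusters lower in SR, array SR 5 was below all SS arrays in 295, SR 6 in 292, SR 3 in 266, SR 4 in 235, SR 2 in 96 and SR 1 in 33, and SR 5 was the lowest SR array in 269. Without array SR 5 there were 107 lower clusters in place of 300, without SR 6 there were 164, and without both 48, with a median difference of −0.09. It was 539 without SR 1, 492 without SR 2 and 171 without SS 4. The count of 11 higher clusters was 17 without SR 1, 18 without SR 2, 25 without CT 3, 19 without CT 5 and 19 without YSS 3. The 1.7-fold count of 50 was 10 without SR 5, 30 without SR 6, 2 without both, 126 without SR 1, 97 without SR 2 and 30 without SS 4. The choice to leave out SR 5 and SR 6 together was made after seeing the data. Other measures of the arrays differed too. The 95th percentile of the negative controls ran from 9.63 (SR 5) and 9.64 (SR 6) to 10.31 in SR, against 10.02 to 10.32 in SS. The median of coding clusters above bioB was 11.03 to 11.25 in SR, highest on SR 5, against 11.04 to 11.11 in SS. The summed cortical markers were highest in SR on SR 5, at 11.36 against 7.78 to 9.54 in SS, and the summed blood markers lowest on SR 6, at 17.58 against 18.11 to 18.89 in SS. In CT, YSR and YSS the cortical sum reached 11.62, 11.375 and 11.13, and the lowest blood sums were 18.22, 18.46 and 17.86. The part of these measures in the result was not tested.

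**Figure D2:**
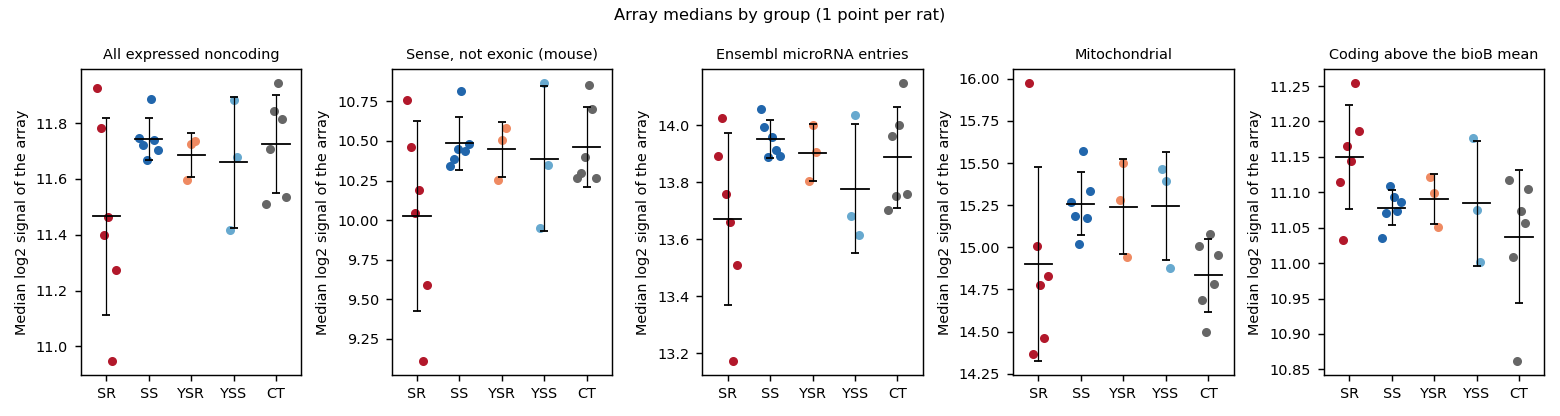
Median log2 signal on each array (1 point per rat) for all expressed noncoding clusters, 3 of their classes and coding clusters above bioB, in SR, SS, YSR, YSS and CT. Lines are group means with SD. For sense nonexonic transcripts SR spans 9.11 to 10.76 and SS 10.34 to 10.81, while coding medians span 11.03 to 11.25 in SR and 11.04 to 11.11 in SS.

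By annotation class the median difference ran from −0.49 for mouse microRNA names to −0.05 for mitochondrial and structural RNAs. Of the 238 sense nonexonic transcripts 237 had a negative difference and 90 (37.8%) were lower in SR at an unadjusted p under 0.05, with a median of −0.45 and 0 higher. Their array medians were 9.11, 10.12 and 10.76 (lowest, median, highest) in SR and 10.34, 10.44 and 10.81 in SS, so the ranges overlapped through SR 1 and SR 2. Of the Ensembl microRNA entries 90 (26.3%) were lower and 3 higher, with a median of −0.25. Mouse predicted genes had 36 lower (26.5%, median −0.23), intergenic transcripts 25 (21.0%, −0.30), rat noncoding entries 22 (16.2%, −0.15) and rat gene database loci 17 (11.6%, −0.13). The 23 mitochondrial clusters had 1 lower and a median of −0.05, and the 18 structural RNAs had 0 lower and 2 higher with a median of −0.05. Without SR 5 and SR 6 the sense nonexonic class had 4 lower (1.68%) with a median of −0.13 and the Ensembl microRNA entries 15 (4.39%) with −0.10. The difference between classes was not tested, and clusters of a class share arrays and often a gene. Split into 3 equal sets by mean level over all arrays, 23.8% of the low, 27.3% of the middle and 21.9% of the high set were lower in SR.

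**Figure D3:**
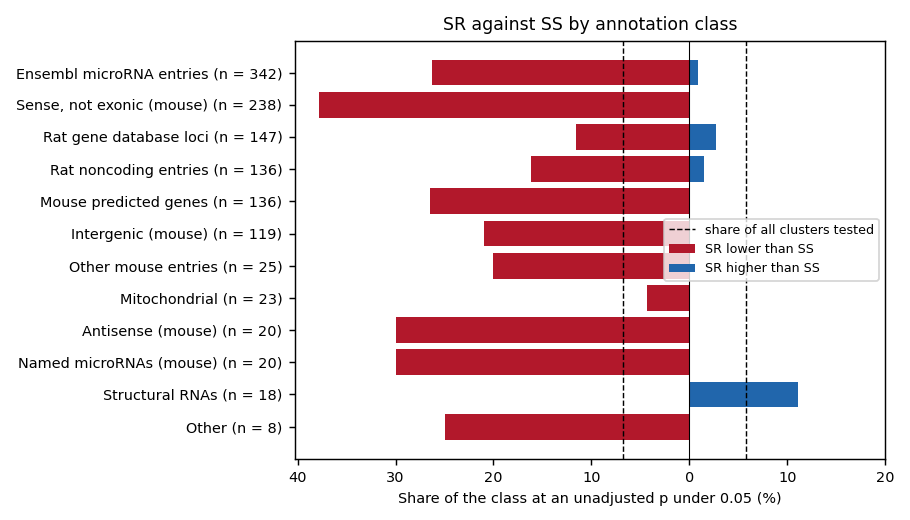
Share (%) of each annotation class that was lower (left) or higher (right) in SR than in SS at an unadjusted p under 0.05. Dashed lines mark the share of all 9044 clusters, 6.77% lower and 5.76% higher, and bars of mitochondrial and structural RNAs do not reach the line for lower clusters.

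Of 289 noncoding clusters with a same-strand coding cluster above bioB, 260 had a lower SR minus SS than that coding cluster, with medians of −0.39 and 0.03. The count was uneven among classes, at 32 of 34 Ensembl microRNA entries and 16 of 17 intergenic transcripts, but 16 of 31 mouse predicted genes and 13 of 21 rat gene database loci. For 169 sense nonexonic transcripts whose same-strand coding cluster was itself above bioB, the median SR minus SS was −0.45, against 0.03 for their 81 coding clusters. All 169 lay below their coding cluster in this difference. Of the transcripts 63 passed an unadjusted p of 0.05 with a lower and 0 with a higher value in SR, and of their coding clusters 0 and 4. Without SR 5 and SR 6, 137 of the 169 lay below. Within Nrxn3, a presynaptic adhesion gene, 9 of 17 noncoding clusters were lower with a median of −0.49, against −0.09 for Nrxn3 itself. Within Dlg2, which encodes a postsynaptic scaffold protein, 9 of 12 were lower with a median of −0.51, against −0.13 for Dlg2. Pcdh9 had 4 of 17 lower with a median of −0.36 against −0.0034 for Pcdh9, and Robo1 1 of 12 with −0.35 against 0.07 for Robo1. The noncoding clusters within moflu had a smaller difference than the cluster around them, with a median of −0.23 and 4 of 23 lower, while the moflu cluster had −0.32, and 4 clusters within RGD1561327 had a median of −0.33 against −0.31 for RGD1561327.

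**Figure D4:**
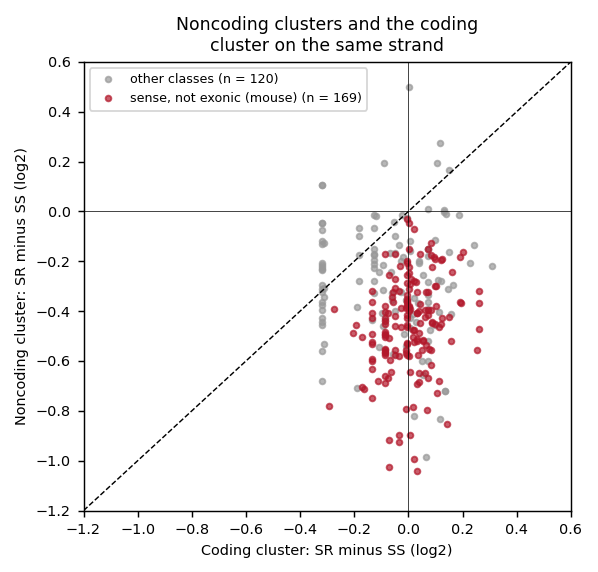
SR minus SS (log2) of 289 expressed noncoding clusters on the vertical axis against that of the coding cluster on the same strand on the horizontal axis, with equal values on the dashed line. All 169 sense nonexonic transcripts lie below the line. A column of points shares 1 coding cluster.

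In the microRNA block all 40 clusters were below 0 in SRvsSS, from −0.85 to −0.17, and 14 were lower at an unadjusted p under 0.05 (10 of the 31 distinct sets of values). The cluster of rno-mir-466b-2, whose mature arms are printed above, read 9.52, 10.26 and 10.81 (lowest, median, highest) in SR and 10.60, 10.69 and 11.33 in SS. It read 10.56, 10.33 and 10.95 on the YSR arrays in order, 10.37, 10.56 and 10.98 on the YSS arrays, and 9.95, 10.74 and 11.84 (lowest, median, highest) in CT. Of the SR arrays, 1 was above the lowest SS array, and the CT range held all SS and most SR values. Its difference SR minus SS was −0.68 ± 0.25 (adjusted p = 0.378). The clusters of rno-mir-466b-1 and rno-mir-466c had −0.60 ± 0.31 and −0.55 ± 0.30 without passing an unadjusted p of 0.05.

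The cluster with the smallest p in SRvsSS was TC0400001267.rn.1, a sense nonexonic transcript of 2367 bases within Zfp638, a zinc finger gene on chromosome 4. It read 9.41, 9.65 and 10.07 (lowest, median, highest) in SR and 10.01, 10.26 and 10.51 in SS. It read 10.27, 10.16 and 10.30 in YSR, 9.96, 10.57 and 9.87 in YSS, and 10.24, 10.27 and 10.38 in CT. Only SR 1 reached the SS range. The difference was −0.58 ± 0.12 (95% interval −0.82 to −0.34, adjusted p = 0.378).

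LOC102550350 (TC0700001961.rn.1), an uncharacterised rat locus of 1198 bases at chr7:1673206-1674404 on the minus strand, read 16.2, 16.97 and 17.96 in SR, and 17.69, 17.92 and 18.45 in SS. YSR arrays read 18.02, 18.08 and 17.86, YSS arrays 17.90, 18.62 and 17.71, and CT 17.69, 18.01 and 18.63. Again SR 1 lay within the SS range and the other SR arrays below it. SR minus SS was −0.93 ± 0.22 and SR minus YSR −0.96 ± 0.27 (adjusted p = 0.378 and 0.699).

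A mouse predicted gene of 53 bases opposite Nadsyn1 on chromosome 1 (TC0100002950.rn.1) read 14.24, 14.47 and 14.85 in SR, and 14.80, 15.04 and 15.21 in SS. YSR read 14.75, 14.74 and 14.70, YSS 14.33, 13.86 and 14.65, and CT 14.12, 14.67 and 14.95. Of the SR arrays only SR 2 reached the SS range, and all YSS arrays were below it. SR minus SS was −0.56 ± 0.14 and SS minus YSS was 0.76 ± 0.17 (adjusted p = 0.378 and 0.325).

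A cluster of 5275 bases within Cyld, a deubiquitinase gene, had SR minus SS of −0.54 ± 0.14, and the chromosome 13 cluster described as microRNA 297c had −1.08 ± 0.32, with SR values of 11.31, 12.32 and 13.72 against 13.13, 13.72 and 13.84 in SS. Other low p-values belonged to TC0100001834.rn.1 (−0.59 ± 0.16) and TC0700000388.rn.1 (−0.46 ± 0.13). In 1 of 1232 noncoding clusters all SR arrays were below the SS arrays, against 9 of all 9044 clusters (0.0995%). This was TC0100000536.rn.1, a sense nonexonic transcript within Qk, but the nearest pair read 9.45 in SR and 9.46 in SS. It was singled out after its values were seen.

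Values of SR were higher than those of SS, at an unadjusted p, for the 5.8S ribosomal RNA, a component of the large ribosomal subunit. The 5.8S cluster on chromosome 14 (TC1400000574.rn.1) read 17.02, 17.56 and 17.73 in SR, and 16.59, 16.96 and 17.29 in SS. It read 17.33, 17.04 and 16.75 in YSR, 17.38, 16.97 and 16.58 in YSS, and 16.45, 16.98 and 17.23 in CT. Only SR 1 lay within the SS range and the other SR arrays above it. SR minus SS was 0.55 ± 0.16 and the unplaced Rn5-8s cluster, which covers the same RNA, had 0.51 ± 0.17 (adjusted p = 0.378 for each). The other higher clusters with the smallest p were TC1100000180.rn.1 (0.23 ± 0.08), TC0100001043.rn.1 (0.27 ± 0.09), TC1400001222.rn.1 opposite Ppp2r3b (0.26 ± 0.09) and TC0300002634.rn.1 (0.34 ± 0.13). All SR arrays exceeded all SS arrays in 3 of 1232 noncoding clusters, against 28 of all 9044 clusters (0.31%). The 3 were TC0100000121.rn.1, TC1400000562.rn.1 and TC1400000564.rn.1. Their differences were 0.22, 0.21 and 0.21, and the pair on chromosome 14 had identical values. That pair lies in the window of the 5.8S cluster, chr14:46329996-46687136. The 10 expressed clusters there, with 5 distinct sets of values, had a median SR minus SS of 0.21.

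**Figure D5:**
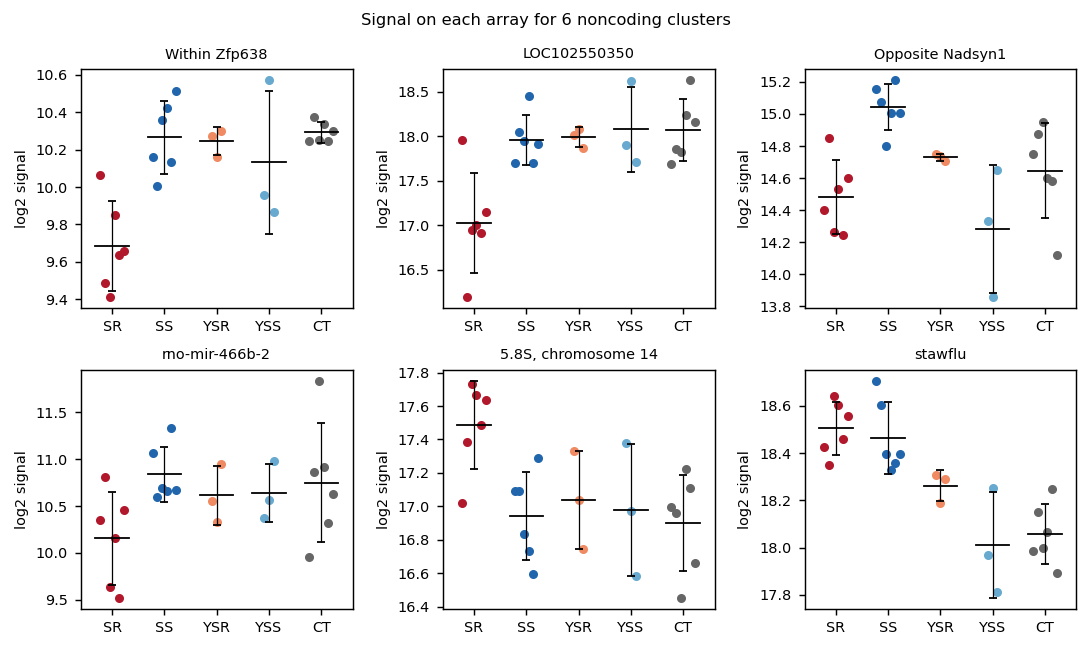
Log2 signal on each array for 6 noncoding clusters in SR, SS, YSR, YSS and CT, with group means and SD. SR minus SS is −0.58 within Zfp638, −0.93 for LOC102550350, −0.56 for the cluster opposite Nadsyn1 and −0.68 for rno-mir-466b-2, and 0.55 for 5.8S. For stawflu every SR and SS point lies above every YSS and CT point.

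In SRvsYSR the noncoding clusters also had mostly lower values in SR. There were 98 clusters (7.95%) lower and 13 (1.06%) higher in SR than in YSR at an unadjusted p under 0.05, against 2.79% and 3.54% of all clusters, with a median of −0.19. By 1.7-fold 29 were lower and 0 higher, against 0.542% and 0.0885% of all clusters. None passed an adjusted p of 0.05 (0 of 1232, limma, smallest 0.699, background 0%), but 6 did with array weights. Sense nonexonic transcripts again had the lower median, −0.43 with 34 lower, and Ensembl microRNA entries had −0.13 with 7 lower. Without SR 5 there were 31 lower clusters in place of 98, without SR 6 there were 49, and without both 15. It was 301 without SR 1, 194 without SR 2, 56 without YSR 2 and 39 without YSR 3. The 1.7-fold count of 29 was 9 without SR 5, 15 without SR 6, 5 without both, 13 without YSR 3, 125 without SR 1, 71 without SR 2 and 53 without YSR 1. The higher count of 13 was 7 without SR 3, SR 4 or YSR 3 and 8 without SR 6. SRvsSS and SRvsYSR share the SR arrays. Among the clusters with the smallest p, TC0100003434.rn.1, antisense to the adenylate kinase gene Ak3, had SR minus YSR of −1.02 ± 0.31, and TC0400000799.rn.1 had −0.92 ± 0.28. In the other direction stood TC1400001222.rn.1 with 0.43 ± 0.11 and TC0600000205.rn.1 with 0.41 ± 0.13.

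In SSvsYSS the shares of noncoding clusters at an unadjusted p were near those of all clusters. There were 50 clusters (4.06%) higher and 13 (1.06%) lower in SS at an unadjusted p under 0.05, against 3.86% and 1.6% of all clusters, with a median of 0.07. By 1.7-fold 5 were higher and 2 lower, together 0.568% of the noncoding clusters, against 0.155% and 0.0553% of all clusters. By that rule the share was above that of all clusters. None passed the adjusted p (0 of 1232, limma, smallest 0.325, background 0%), but 2 did without array YSS 2. The higher count of 50 was 33 without SS 1, 26 without YSS 1 and 97 without YSS 2, the lower count of 13 was 20 without SS 4 and 8 without YSS 2, and the 1.7-fold count of 7 was 11 without SS 3, 12 without SS 4, 20 without YSS 2 and 14 without YSS 3. Among the smallest p-values were those of neighbours on the minus strand of chromosome 1. The cluster stawflu (TC0100007138.rn.1, annotated as LOC100912411, 2496 bases) read 18.33, 18.40 and 18.70 (lowest, median, highest) in SS, and 17.97, 18.25 and 17.81 in YSS. It read 18.35, 18.51 and 18.64 in SR, 18.31, 18.19 and 18.29 in YSR, and 17.89, 18.03 and 18.25 in CT. All SS arrays were above all YSS arrays. SS minus YSS was 0.45 ± 0.10 (adjusted p = 0.325), and 0.38 ± 0.09 for TC0100007137.rn.1, which lies next to it.

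Further clusters with small p in SSvsYSS were TC1200001064.rn.1, an intergenic transcript of 1222 bases on chromosome 12, with 0.52 ± 0.12, TC0500003558.rn.1, an intergenic transcript of 340 bases on chromosome 5, with 0.93 ± 0.22, and TC0200003066.rn.1, one of the shortest clusters with 25 bases and 2 probes. The short one read 12.18, 12.78 and 13.17 in SS, and 11.22, 11.44 and 12.15 in YSS, with no overlap and a difference of 1.20 ± 0.28. LOC102549937 (TC1400001721.rn.1), 1724 bases opposite Gabra2, the gene of a GABA-A receptor subunit, went the other way. It read 11.95, 12.36 and 12.88 in SS, and 12.86, 13.29 and 13.52 in YSS. It read 12.50, 12.88 and 13.33 in SR, 12.16, 12.10 and 12.98 in YSR, and 12.77, 13.27 and 13.47 in CT. SS and YSS overlapped only through the highest SS array and the lowest YSS array. SS minus YSS was −0.83 ± 0.24 and YSR minus YSS −0.81 ± 0.28 (adjusted p = 0.651 and 1).

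In YSRvsYSS, which compares the yoked groups, 7 clusters (0.568%) were higher and 6 (0.487%) lower in YSR at an unadjusted p under 0.05, against 0.641% and 0.321% of all clusters, and the median was 0.04. Higher and lower clusters numbered 15 and 4 without YSS 2, 11 and 16 without YSS 1, 3 and 3 without YSR 1, and 6 and 3 without YSR 2, so their balance turned with the array left out. By 1.7-fold 1 was higher, TC0200003066.rn.1 with 1.06 ± 0.32, and 1 lower, LOC102549937, against 0.0663% and 0.0221%. None passed the adjusted p (0 of 1232, limma, smallest 1, background 0%).

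Over SR, SS, YSR and YSS together, the moderated F test called 0 noncoding clusters at an adjusted p of 0.05 (limma, smallest 0.245, against 1 of 9044 clusters or 0.0111%; 28 without SR 1 and 50 with array weights), and 132 (10.7%) at an unadjusted p under 0.05, against 8.45% of all clusters. That count of 132 was 352 without SR 1, 236 without SR 2, 78 without SR 5, 82 without SR 6 and 38 without SR 5 and SR 6. The 6 smallest were the Zfp638 cluster, LOC102550350, the predicted gene opposite Nadsyn1, stawflu with its neighbour TC0100007137.rn.1, and TC1200001064.rn.1. The difference of differences, (SR minus YSR) minus (SS minus YSS), gave 0 calls (limma, smallest adjusted p = 0.876, background 0%) and 56 clusters (4.55%) at an unadjusted p under 0.05, against 2.5% of all clusters.

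Differences from CT are given as a description, since the CT arrays chose the clusters. In SRvsCT 14 clusters were higher and 12 lower at an adjusted p under 0.05, against 1.74% and 0.254% of all clusters (1.99% in all), and by 1.7-fold 12 were higher and 55 lower, against 0.177% and 0.796%. At an unadjusted p under 0.05, 69 were higher and 296 lower in SRvsCT, against 15.9% and 5.38% of all clusters. The lower count was 505 without SR 1, 156 without SR 5 and 78 without SR 5 and SR 6. SSvsCT had 0 adjusted calls (limma, background 0%), 69 higher and 26 lower at an unadjusted p, against 5.97% and 0.962%, and 5 and 4 by 1.7-fold, against 0.0774% and 0.0663%. YSRvsCT had 0 adjusted calls (limma), 24 higher and 9 lower at an unadjusted p, against 2.65% and 0.343%, and 2 and 2 by 1.7-fold, against 0.0774% and 0.0221%. YSSvsCT had 0 adjusted calls (limma), 14 higher and 9 lower at an unadjusted p, against 2.19% and 0.63%, and 4 and 1 by 1.7-fold, against 0.0885% and 0.0663%. The stawflu cluster was 0.45 ± 0.08 above CT in SR and 0.41 ± 0.08 above CT in SS, and the Zfp638 cluster was −0.61 in SR minus CT and −0.03 in SS minus CT. The mitochondrial cluster TC0M00000040.rn.1, of 382 bases on the minus strand, averaged 15.95 in CT, with 0.84 in SR minus CT and 1.03 in SS minus CT. Its CT arrays ran from 14.95 to 16.61. The saline yoked arrays read 16.706, 16.655 and 16.73 in YSR, all above CT, and 16.49, 16.885 and 15.958 in YSS.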

How the data were processed

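Accumbens RNA of 24 rats was hybridised to Affymetrix rat transcriptome arrays, each rat on its own array. The authors deposited log2 signals of transcript clusters, and the submitters' processing notes name Expression Console. No source used here states the background correction, the normalization between arrays or the build of the positions, and a signal already normalized across arrays shows shifts relative to the other clusters only. The authors' table gave the annotation class, symbol, chromosome, strand, Start and Stop. Its group averages, fold changes and p-values were not used. The number of arrays limits the precision.

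The 9044 clusters above the bioB mean in CT entered 1 limma fit of 5 groups over 24 arrays (lmFit and eBayes, limma 3.58.1, R 4.3.3, two-sided), with Benjamini-Hochberg adjustment over all 9044, a threshold of 0.05, and a second count at 1.7-fold with an unadjusted p under 0.05. This step was tested on simulated data. Overlaps, windows and plots were made in Python 3.11.15. The members, lists and tests were chosen with earlier results of these data known. Named clusters were drawn from the 10 with the highest CT mean, the 5 longest and 5 shortest, those nearest the threshold, up to 6 per direction and comparison with the smallest p (3 for CT comparisons), the 6 smallest of the F test and a list of known noncoding symbols. Alternatives covered the filter, normalization, array weights, moderation, a block for replicate numbers, the groups fitted and each array left out.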

Additional observations from a re-analysis of the deposited data

Results flagged for a closer look

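The medians of the annotation classes and the clusters whose values are given group by group were looked at for arrays far from the rest of their group, over 75 groups of 6 arrays, where chance alone sets about 1 in 20 apart. In 2 cases the gap to the nearest array was large relative to the range of the group, both on array SS 4. These are fewer cases than that rate sets apart over 75 groups. They are not independent, since sense nonexonic transcripts are part of all expressed noncoding clusters. On SS 4 the median of sense nonexonic transcripts was 10.81 against 10.34 to 10.48 on the other SS arrays. Its median of all expressed noncoding clusters was 11.88 against 11.67 to 11.74. Without SS 4 the count past 1.7-fold in SRvsSS was 30 in place of 50.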

How the results depend on the processing

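With 1 array left out at a time, at an adjusted p under 0.05 in limma the noncoding clusters numbered 0 to 101 in SRvsSS (101 without SR 1), 0 to 2 in SSvsYSS (2 without YSS 2), 0 to 253 in SRvsCT (0 without SR 3, 253 without SR 1) and 0 to 28 by the F test, and 0 in the other comparisons. Past 1.7-fold the ranges were 10 to 126 in SRvsSS, 9 to 125 in SRvsYSR, 7 to 20 in SSvsYSS, 1 to 6 in YSRvsYSS, 35 to 158 in SRvsCT, 7 to 12 in SSvsCT, 2 to 13 in YSRvsCT and 3 to 16 in YSSvsCT. Lower clusters at an unadjusted p ran from 107 to 539 in SRvsSS and from 31 to 301 in SRvsYSR, and the number of expressed noncoding clusters from 1216 to 1256.

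Array weights gave 243 adjusted calls in SRvsSS, 6 in SRvsYSR, 50 by the F test, 211 in SRvsCT, 13 in SSvsCT and 1 in YSRvsCT, with 563 lower clusters in SRvsSS and 292 in SRvsYSR at an unadjusted p, and 44 past 1.7-fold in SRvsYSR. The 26 adjusted calls in SRvsCT became 11 with no filter, 51 after another quantile normalization, 0 with only the groups compared and 0 without SR 5 and SR 6. The quantile normalization left 33 past 1.7-fold in SRvsSS, and equal array medians 43 in SRvsCT in place of 67. Without SR 5 and SR 6, 2 were left past 1.7-fold in SRvsSS, 5 in SRvsYSR and 26 in SRvsCT, and 48 lower in SRvsSS and 15 in SRvsYSR. With only the groups compared, SRvsYSR had 8 past 1.7-fold and 29 lower. Lower against higher clusters in SRvsSS numbered 290 and 34 under the quantile setting, and 209 and 13 when array medians were made equal. The causes were not tested. Shares of all clusters were not computed under these settings or with arrays left out, so these counts have no background. Without coding clusters over 3 Mb, 34.6% of clusters overlapped one on the same strand. Leaving out SR 5 and SR 6, counting at an unadjusted p and dropping the coding clusters over 3 Mb were chosen after seeing the data.

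The array titles do not say whether replicate numbers pair yoked rats with their partners. Deviations of same-numbered arrays had a median correlation of −0.02 over 39 pairs, with 13 over 0.1. Arrays with different numbers had −0.02 over 186 pairs, with 70 over 0.1. These pairs join all groups and not only yoked rats with partners, so they cannot decide whether the numbers pair those. With the replicate number as a block, SRvsSS had 50 past 1.7-fold with 293 lower, while SRvsYSR had 15 and 49, SSvsYSS 20, YSRvsCT 8 and YSSvsCT 11 past 1.7-fold, and SRvsCT had 19 adjusted calls.

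The differences of the named clusters, 48 in all, were recomputed under 28 of the alternatives (no filter, the quantile setting, equal array medians, the replicate block and each of the 24 arrays left out), and not with array weights, the other moderation or filter, only the groups compared, or without SR 5 and SR 6. They kept their sign in all 1344 values, and 9 passed an adjusted p of 0.05, 8 of them in SRvsSS without SR 1 and 1 in SSvsYSS without YSS 2. Clusters near 19.7 lie at the top of the signal range, and 32 were not above the negative controls on any array.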
